A study of Mus musculus with 12 samples.

Results

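The 10 astrocyte marker genes Gfap, Aqp4, Slc1a2, Slc1a3, Aldh1l1, Gja1, Gjb6, S100b, Glul and Sox9 were followed over the day and night in the prefrontal cortex of mice. The members were chosen as genes that mark astrocytes, and each was read through every probe set annotated to that gene alone. They are 10 of the 18193 genes that the array carries under 1 symbol, and all 10 are among the 11791 genes tested. They hold 33 probe sets, of which 29 were among the probe sets tested and 4 were too dim, with mean log2 intensities of 2.75 to 4.12 against a lowest tested mean of 4.87. A probe set that Slc1a2 shares with another gene was left out by the rule.

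The study asked which transcripts of the prefrontal cortex vary with the time of day. Dark-phase mice were taken at zeitgeber time (ZT, hours after lights on) 15 and 21 and light-phase mice at ZT3 and ZT9, with 3 mice at each time and 1 mouse on each of the 12 arrays. All were untreated C57BL/6J mice, 10 weeks old when they were obtained and then kept for 2 weeks under 12 h of light and 12 h of darkness. Times and light phase change together here, so the clock, sleep and light cannot be told apart. The dissected piece was the anterior cortex after the olfactory bulb and the subcortical structures had been taken away. It is bulk tissue, in which fewer cells of a type and less RNA per cell cannot be told apart.

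Astrocytes are the glial cells that tile the cortex, wrap synapses and send endfeet to blood vessels. They clear glutamate from the synaptic cleft through the transporters GLT-1 and GLAST, turn it into glutamine, and pass glutamine back to neurons. They also take up potassium, move water at the endfeet, and are joined to each other by gap junctions. The members cover these roles. Slc1a2 (GLT-1), Slc1a3 (GLAST) and Glul (glutamine synthetase) serve glutamate clearance, Aqp4 (aquaporin-4) serves water flow, and Gja1 (connexin 43) and Gjb6 (connexin 30) form the gap junctions. Gfap (an intermediate filament protein), S100b (a calcium-binding protein), Aldh1l1 (a folate enzyme) and Sox9 (a transcription factor) are used to identify the cells.

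Among the astrocyte markers, a difference between the times of day passed the F-test at an adjusted p of 0.20 in 1 probe set of Glul and in no other. By the moderated F-test of limma across the 4 times, 1 of the 29 member probe sets passed an adjusted p of 0.20, the false discovery rate used by the study, where 1.93% of all tested probe sets passed. None of the 29 passed an adjusted p of 0.05, where 0.106% of all tested probe sets did. At an unadjusted p under 0.05 there were 4 of 29, 1 each of Glul, Slc1a2, Slc1a3 and Aqp4, beside 15.5% of all tested probe sets. The multiclass SAM statistic at 20% called 2 of 29, the same Glul probe set and 1 of Slc1a2, beside 9.58% of all tested probe sets. For each gene the probe set with the highest mean is called the brightest below, and none of the 10 brightest had an unadjusted p under 0.05. Their adjusted p ran from 0.363 to 0.885.

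The range of a probe set is the highest minus the lowest of its 4 time means. It was 0.10 to 0.36 on the log2 scale for the brightest probe sets, with standard errors of 0.11 to 0.17. The median range was 0.23, and the widest was a 1.28-fold difference. Among the dimmer probe sets the range reached 0.97 (Slc1a2 1433094_at, 1.95-fold), 0.92 (Slc1a2 1459014_at, 1.89-fold) and 0.79 (Aqp4 1447745_at, 1.73-fold). Over all 29 member probe sets the median range was 0.28, beside 0.27 over all tested probe sets. The spread between mice at 1 time was likewise near that of other genes, with a median SD of 0.16 for the brightest member probe sets and 0.17 for all tested ones.

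**Figure D1:**
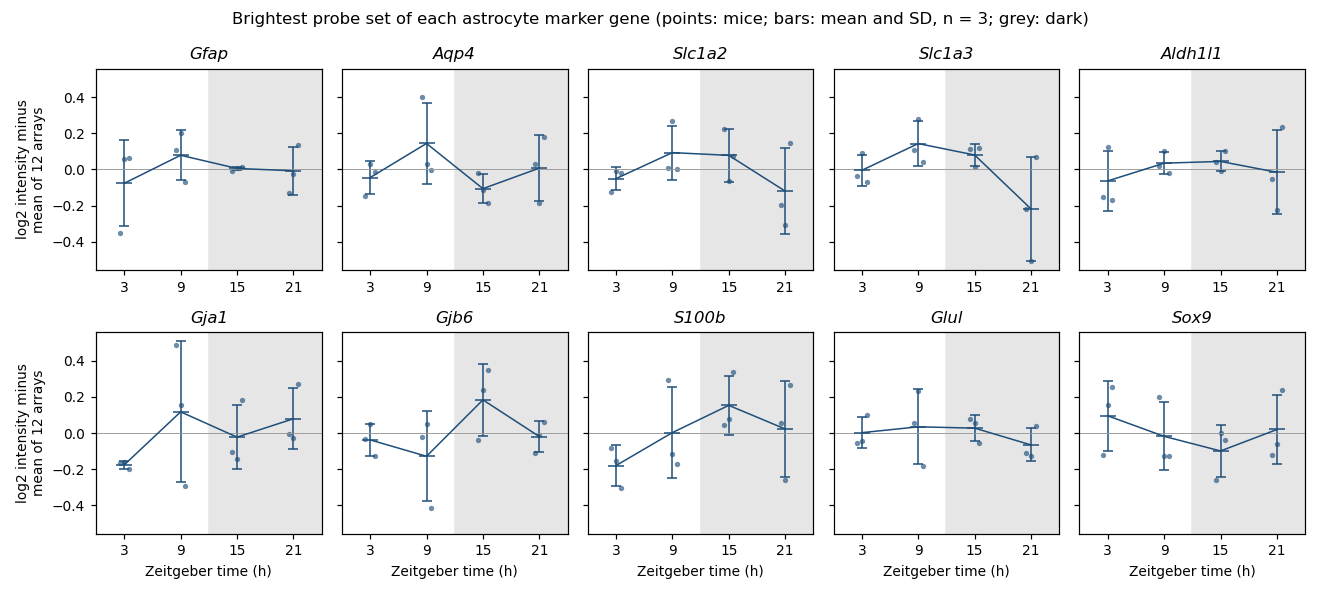
Log2 intensity of the brightest probe set of each of the 10 members, less its mean over the 12 arrays (vertical axis), at ZT3, ZT9, ZT15 and ZT21 (horizontal axis). Points are single mice and bars are the mean and SD of 3 mice. The time means of any 1 gene lie within 0.36 log2 of each other.

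Glul was the member with the clearest difference between times, in 1 of its 2 probe sets. The upstream region of Glul is shown because this gene holds the only call of the F-test among the members. It is given as 250 bases before the start on the plus strand of GRCm38.p6, 5′ to 3′, from the RefSeq promoter table, with no capitals because none of the motifs searched lies in it.
Glul, chr1:153899679-153899928: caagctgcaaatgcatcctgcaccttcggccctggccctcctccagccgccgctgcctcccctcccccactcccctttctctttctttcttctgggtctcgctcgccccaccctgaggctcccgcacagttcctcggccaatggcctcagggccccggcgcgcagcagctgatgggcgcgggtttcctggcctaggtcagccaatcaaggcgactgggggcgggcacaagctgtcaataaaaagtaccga
It is the most GC-rich of the 3 upstream regions shown here, at 64.8% GC against a median of 52.4% over all promoters of the table. The promoters of the table also hold 50 bases after the start, which the region shown does not.

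Glul encodes the enzyme that makes glutamine from glutamate and ammonia. In probe set 1426235_a_at its log2 intensity was 10.30, 10.60 and 10.11 at ZT3, 10.07, 9.996 and 10.02 at ZT9, 10.38, 10.64 and 10.64 at ZT15, and 10.69, 10.57 and 10.68 at ZT21. The 3 mice of ZT21 all lay above the 3 of ZT9, and the 3 of ZT9 lay below every other mouse, while ZT15 and ZT3 overlapped. The means were 10.34 ± 0.25, 10.03 ± 0.04, 10.55 ± 0.15 and 10.65 ± 0.07 in the same order (SD, n = 3 each). The range of 0.62 ± 0.12 (SE), a 1.53-fold difference, had an adjusted p of 0.168 by the F-test of limma and ranked 224 among all tested probe sets. ZT21 exceeded ZT9 by 0.62 ± 0.12 (adjusted p = 0.228), and dark exceeded light by 0.42 ± 0.09 (adjusted p = 0.106), neither of which passed 0.05.

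The other Glul probe set, 1426236_a_at, did not show this. It read 12.72, 12.73 and 12.88 at ZT3, 12.83, 13.01 and 12.59 at ZT9, 12.86, 12.83 and 12.72 at ZT15, and 12.66, 12.65 and 12.81 at ZT21. All 4 times overlapped, the range was 0.10 ± 0.11 (SE) and the adjusted p was 0.882. Over the 12 arrays the 2 probe sets correlated at -0.33. The range of the dimmer one stayed at 0.59 to 0.66 in the 12 fits that left out 1 array, but its call was lost in 7 of them, at adjusted p from 0.204 to 0.336. These were the fits without each of the 3 mice of ZT3, at 0.223, 0.204 and 0.227 for replicates 1, 2 and 3, and those without ZT9 replicate 2 (0.271), ZT15 replicate 2 (0.248), ZT21 replicate 1 (0.336) and ZT21 replicate 2 (0.272). These 7 fits called 252, 40, 60, 187, 107, 93 and 108 of all tested probe sets, in the same order. With all 12 arrays 473 were called. The Glul call was kept in the other 5 fits, at 0.134 to 0.188, where 242 to 3013 of all tested probe sets were called.

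Slc1a2 encodes GLT-1, which carries most glutamate uptake in the forebrain. Its brightest probe set, 1438194_at, read 13.58, 13.70 and 13.69 at ZT3, 13.72, 13.97 and 13.71 at ZT9, 13.93, 13.64 and 13.78 at ZT15, and 13.51, 13.40 and 13.86 at ZT21. Of the mice of ZT21, 2 were the lowest of all 12 and the other lay among the highest, so ZT21 and ZT9 overlapped, and the range of 0.21 ± 0.13 (SE) had an adjusted p of 0.582. A dimmer probe set, 1459014_at, read 8.27, 8.72 and 8.41 at ZT3, 8.36, 8.98 and 8.58 at ZT9, 8.24, 8.30 and 8.61 at ZT15, and 7.61, 7.35 and 8.19 at ZT21. There all 3 mice of ZT21 lay below all others. ZT21 minus ZT9 was -0.92 ± 0.22 (SE, adjusted p = 0.244) and the F-test gave 0.227, so it did not pass, although SAM called it with a q of 0.185. It passed the F-test without ZT21 replicate 3 (0.111), without ZT9 replicate 1 (0.138) and without ZT15 replicate 3 (0.178). Those fits called 2870, 3013 and 1379 of all tested probe sets, in the same order, against 473 with all 12 arrays.

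The other 3 probe sets of Slc1a2 did not follow 1459014_at. Probe set 1433094_at, near the low end of the tested intensities, had time means of 4.94 ± 0.72, 5.34 ± 0.33, 5.91 ± 0.55 and 5.49 ± 0.10 at ZT3, ZT9, ZT15 and ZT21, with an adjusted p of 0.364. Dark minus light was 0.56 there and -0.50 in 1459014_at, so the probe sets of this gene differed in sign. The remaining pair, 1439940_at and 1451627_a_at, had ranges of 0.35 and 0.27 with adjusted p of 0.622 and 0.452.

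Slc1a3 encodes GLAST, the other glial glutamate transporter. The 250 bases before its start are shown because it is one of the members in which a searched motif was found. The sequence is from the minus strand of GRCm38.p6, 5′ to 3′, and the capitals mark the match to the STAT motif.
Slc1a3, chr15:8710808-8711057: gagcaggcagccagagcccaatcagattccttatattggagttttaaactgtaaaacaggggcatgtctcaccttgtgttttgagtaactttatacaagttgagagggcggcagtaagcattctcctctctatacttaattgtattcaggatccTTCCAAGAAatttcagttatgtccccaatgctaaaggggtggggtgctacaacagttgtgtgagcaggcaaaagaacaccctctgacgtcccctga
The match begins at base -96, counted from the start.

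The brightest Slc1a3 probe set, 1426340_at, read 12.04, 12.17 and 12.003 at ZT3, 12.18, 12.35 and 12.12 at ZT9, 12.18, 12.09 and 12.19 at ZT15, and 11.85, 11.57 and 12.14 at ZT21. A second, 1426341_at, read 10.57, 10.86 and 10.74 at ZT3, 10.30, 11.03 and 10.77 at ZT9, 10.82, 10.69 and 10.28 at ZT15, and 9.87, 9.95 and 10.40 at ZT21. In both, 2 mice of ZT21 were the lowest of all 12 and the third overlapped with mice of other times. The ranges were 0.36 ± 0.13 (SE) and 0.65 ± 0.20, with adjusted p of 0.363 and 0.284 by the F-test. ZT21 minus ZT9 was -0.36 (adjusted p = 0.297) in 1426340_at and -0.63 (adjusted p = 0.271) in 1426341_at. Without ZT21 replicate 3, the mouse that overlapped, their F-test gave 0.147 and 0.164, both past 0.20. Probe set 1426341_at also passed without ZT9 replicate 1 (0.141). Of all tested probe sets, 2870 were called without ZT21 replicate 3 and 3013 without ZT9 replicate 1, against 473 with all 12 arrays. The 2 other tested Slc1a3 probe sets, 1443749_x_at and 1452031_at, had adjusted p of 0.398 and 0.444. The first of them passed without ZT21 replicate 3 (0.152), and 1452031_at had its highest mean at ZT21, where the others had their lowest.

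Aqp4 encodes the water channel of the endfeet. Its brightest probe set, 1434449_at, read 9.94, 10.12 and 10.07 at ZT3, 10.49, 10.12 and 10.08 at ZT9, 10.07, 9.97 and 9.90 at ZT15, and 10.12, 9.90 and 10.27 at ZT21. The times overlapped, with a range of 0.25 and an adjusted p of 0.551. The dimmest of its 3 probe sets, 1447745_at, read 7.52, 7.94 and 7.97 at ZT3, 7.45, 7.88 and 7.94 at ZT9, 7.61, 7.52 and 6.39 at ZT15, and 6.89, 6.98 and 7.19 at ZT21. All 3 mice of ZT21 lay below all 3 of ZT9, while ZT15 replicate 3, at 6.39, was the lowest of all 12 mice. Dark minus light was -0.68 ± 0.20 (SE, adjusted p = 0.196), and the F-test gave 0.294. Without ZT15 replicate 3 the F-test gave 0.135, and without ZT9 replicate 1 it gave 0.194, both past 0.20. Those fits called 1379 and 3013 of all tested probe sets, in the same order, against 473 with all 12 arrays. The remaining Aqp4 probe set, 1425382_a_at, had an adjusted p of 0.704.

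**Figure D2:**
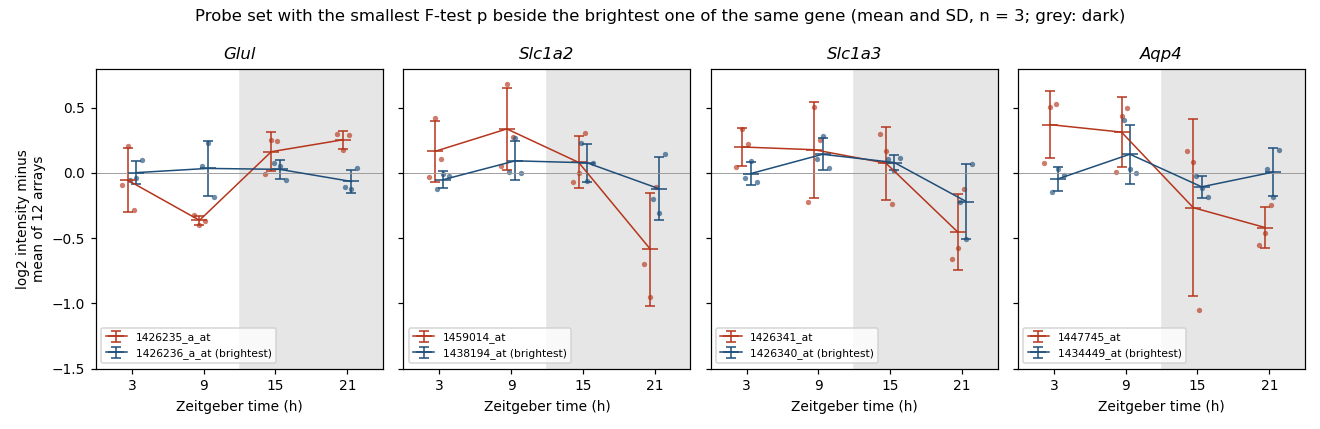
Deviation of log2 intensity from the probe set's own mean over the 12 arrays (vertical axis) at the 4 zeitgeber times (horizontal axis), for the probe sets of Glul, Slc1a2, Slc1a3 and Aqp4. The brightest probe set of each gene is set beside the one with an unadjusted F-test p under 0.05. Points are single mice, and bars are the mean and SD of 3 mice. The ZT9 mice are the lowest in 1426235_a_at of Glul and not in 1426236_a_at.

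Gja1 encodes connexin 43, the main gap junction protein of astrocytes. Its upstream region is shown because it holds the AP-1 motif, marked in capitals. The 250 bases are from the plus strand of GRCm38.p6, 5′ to 3′.
Gja1, chr10:56377050-56377299: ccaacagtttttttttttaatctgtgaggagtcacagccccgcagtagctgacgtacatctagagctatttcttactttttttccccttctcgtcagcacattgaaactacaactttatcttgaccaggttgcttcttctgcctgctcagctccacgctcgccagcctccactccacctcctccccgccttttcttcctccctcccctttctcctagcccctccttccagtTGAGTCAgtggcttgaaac
The match begins at base -19, counted from the start.

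Gja1 was read by 6 tested probe sets, more than any other member. None passed the F-test, at adjusted p of 0.417 to 0.912, though 1438945_x_at did without ZT9 replicate 3 (0.198). That fit called 1492 of all tested probe sets, against 473 with all 12 arrays. The brightest, 1437992_x_at, read 11.98, 11.99 and 11.95 at ZT3, 12.63, 12.30 and 11.86 at ZT9, 12.04, 12.003 and 12.33 at ZT15, and 12.14, 12.12 and 12.42 at ZT21. All 3 mice of ZT15 lay above all 3 of ZT3, by 0.15 in the mean (adjusted p = 0.721), and the mice of ZT9 covered the whole span. Probe set 1415801_at ran the other way, with ZT15 minus ZT3 at -0.40 (adjusted p = 0.371), and it correlated below 0 with each of the other 5 over the 12 arrays. The suffix x in a probe set name means that some of its probes also match other sequences, which holds for 4 of the 6.

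Gjb6, connexin 30, had means of 9.85 ± 0.09, 9.76 ± 0.25, 10.07 ± 0.20 and 9.87 ± 0.08 at ZT3, ZT9, ZT15 and ZT21 (SD, n = 3 each). Its range of 0.31 had an adjusted p of 0.465. S100b had means of 10.32 ± 0.11, 10.50 ± 0.25, 10.65 ± 0.16 and 10.52 ± 0.26 in its brightest probe set, 1434342_at. Its 3 mice of ZT15 lay above its 3 of ZT3, with an adjusted F-test p of 0.526, and its other probe set gave 0.690. By the brightest probe sets, these 2 genes and Aldh1l1 were the members with their highest mean at ZT15.

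No probe set of Gfap, Aldh1l1 or Sox9 had an unadjusted p under 0.05. Gfap, which reactive astrocytes raise strongly, had means of 9.58 ± 0.24, 9.74 ± 0.14, 9.67 ± 0.01 and 9.65 ± 0.13 at ZT3, ZT9, ZT15 and ZT21 in 1426508_at (adjusted p = 0.805). Its 2 tested probe sets correlated at 0.72, the second giving an adjusted p of 0.654. Aldh1l1 had means of 9.09 ± 0.16, 9.19 ± 0.06, 9.20 ± 0.06 and 9.14 ± 0.23, with a range of 0.11 (adjusted p = 0.885). Sox9, which keeps the astrocyte programme on in the adult brain, had adjusted p of 0.753, 0.597 and 0.999 in its 3 probe sets. The second, 1433889_at, had a mean of 5.26, near the lowest tested mean of 4.87. The third, 1451538_at, had a range of 0.01 but hardly differed between mice, with its SD within times at percentile 1.78 of all tested probe sets. It read the same value, 7.096, in ZT3 replicates 1 and 2 and in ZT21 replicate 2.

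Of the 10 brightest probe sets, 6 had their highest mean at ZT9 (Gfap, Aqp4, Slc1a2, Slc1a3, Gja1 and Glul), 3 at ZT15 and 1, Sox9, at ZT3, and 0 at ZT21. The lowest mean lay at ZT21 for Slc1a2, Slc1a3 and Glul, at ZT3 for Gfap, Aldh1l1, Gja1 and S100b, at ZT15 for Aqp4 and Sox9, and at ZT9 for Gjb6. Other probe sets of these genes differed, and 1426235_a_at of Glul had its highest mean at ZT21. Over all 29 tested member probe sets the highest mean lay at ZT3 in 5, ZT9 in 10, ZT15 in 6 and ZT21 in 8. The shares of all tested probe sets with their highest mean at each time are not given here. No order of times was tested within a gene, and the 4 means of each of these probe sets lay within 0.36 log2.

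The night and day were then set against each other. For dark minus light, 0 of 29 member probe sets passed an adjusted p of 0.05, where 0.0937% of all tested ones did. At an unadjusted p under 0.05, 2 were higher in the dark (1 each of Glul and Slc1a2) and 3 lower (1 each of Aqp4, Slc1a2 and Slc1a3), beside 8.76% higher and 6.58% lower of all tested probe sets. Of the 10 brightest, 4 were higher in the dark and 6 lower, beside 51.9% higher of all tested probe sets. Their median difference was -0.02 against 0.01 over all tested probe sets. The median of the members had no fixed sign, at 0.02 without ZT9 replicate 2, 0.0042 without ZT21 replicate 2, 0.0028 without ZT21 replicate 1 and -0.06 without ZT3 replicate 1. The 95% intervals of these 10 differences reached no further than 0.42 log2 from 0.

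For ZT15 minus ZT3, in the early night and early day, 0 of 29 passed an adjusted p of 0.05 (0.22% of all tested). Unadjusted, 1 was higher (Slc1a2 1433094_at) and 2 were lower (Aqp4 1447745_at and Gja1 1415801_at), beside 9.85% and 2.68%. Of the brightest 8 were higher and 2 lower, with a median of 0.10 where all tested probe sets had 0.05 and 60.0% were higher. After quantile normalization the median of the members was -0.03 and that of all tested probe sets -0.02, so the direction of the members turned with the scaling.

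For ZT21 minus ZT9, in the late night and late day, 0 of 29 passed an adjusted p of 0.05 (0.00407% of all tested). Unadjusted, 1 was higher, Glul 1426235_a_at, and 5 were lower, 3 of them probe sets of Slc1a3 and the others 1 each of Slc1a2 and Aqp4, beside 4.18% and 9.07%. Without ZT21 replicate 3, 1 of 29 passed. The share of all tested probe sets passing this contrast in that fit is not given here. The count of 1 therefore cannot be set against it. By the F-test that fit called 2870 of all tested probe sets, against 473 with all arrays. Of the brightest 3 were higher and 7 lower, with a median of -0.07 against -0.02 over all tested probe sets, of which 43.9% were higher. With 1 array of ZT21 or ZT9 left out, the median was -0.03, -0.01 and -0.15 without ZT21 replicates 1, 2 and 3, and -0.03, -0.02 and -0.18 without ZT9 replicates 1, 2 and 3. After quantile normalization it was -0.02.

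The difference of these differences, ZT15 minus ZT3 less ZT21 minus ZT9, was tested in the same fit and passed for 0 of 29 at an adjusted p of 0.05 (0.0244% of all tested). The smallest adjusted p among the members was 0.421. At an unadjusted p under 0.05, 3 were above 0 (1 of Slc1a2 and 2 of Slc1a3) and 1 below 0 (Glul), beside 8.47% and 2.3% of all tested probe sets. Of the brightest 9 were above 0, with a median of 0.16 against 0.10 over all tested probe sets, of which 64.5% were above 0.

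**Figure D3:**
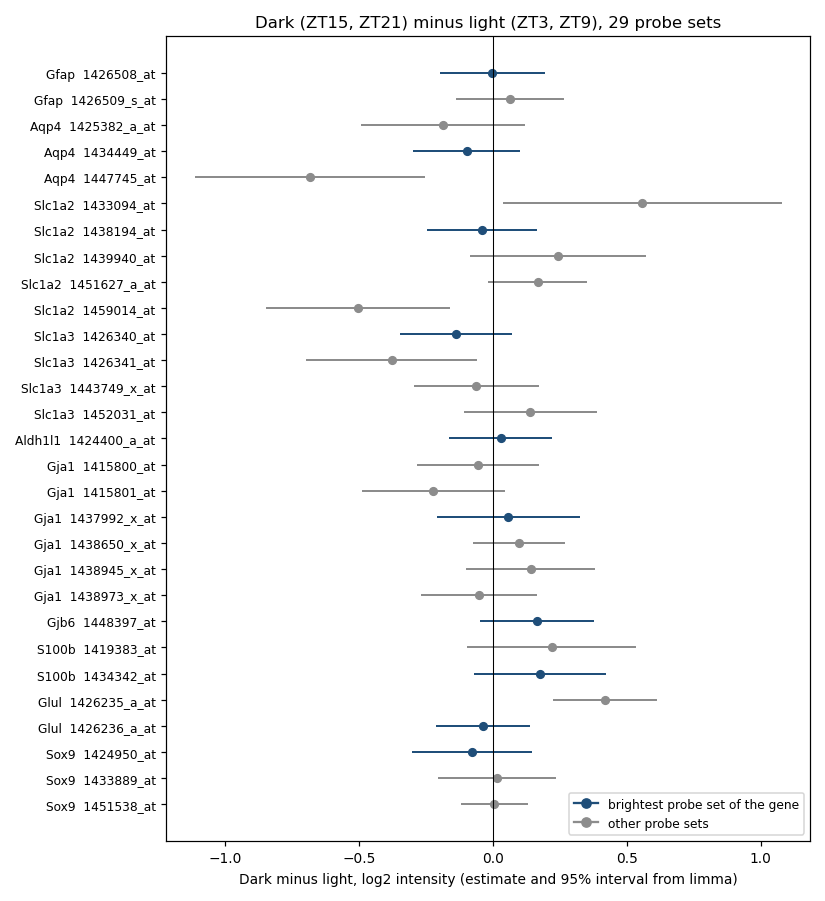
Difference of log2 intensity, dark (ZT15 and ZT21) minus light (ZT3 and ZT9), on the horizontal axis for each of the 29 tested member probe sets on the vertical axis. Points are the fitted differences and bars their 95% intervals. The points run from -0.68 for Aqp4 1447745_at to 0.56 for Slc1a2 1433094_at.

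The members varied together from mouse to mouse. Each mouse gives 1 array, so the members of a mouse share its tissue piece, its RNA and its array. Over the 45 pairs of members, the brightest probe sets correlated over the 12 arrays at a median of 0.37, from -0.23 for Aqp4 and Gjb6 to 0.88 for Slc1a2 and Slc1a3. The median was 0.12 for a sample of every 4th tested gene. After the mean of each time was taken away, all 45 pairs lay above 0, with a median of 0.45 and a highest value of 0.93, for Slc1a3 and Aldh1l1, against 0.16 in that sample. Between probe sets of 1 gene the median correlations over the 12 arrays were 0.67 for Gja1, 0.39 for Slc1a2, 0.45 for Slc1a3 and 0.12 for Sox9.

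The mean of the 10 members, each scaled to its own mean and SD, was -0.79, 0.14 and -0.20 in the mice of ZT3, 0.90, 0.70 and -0.70 at ZT9, 0.08, 0.05 and 0.43 at ZT15, and -0.54, -1.02 and 0.95 at ZT21. The mice of ZT9 and those of ZT21 each stood at both ends of this scale. All 10 members were above their own mean in ZT21 replicate 3, and 0 were in ZT3 replicate 1 and ZT21 replicate 2. The 4 arrays with the highest mean intensity over all probe sets, at 392 to 398 where the others had 344 to 374, were also the 4 with the highest member mean: ZT9 replicates 1 and 2, ZT15 replicate 3 and ZT21 replicate 3. The part of array intensity in the members' values was not tested.

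**Figure D4:**
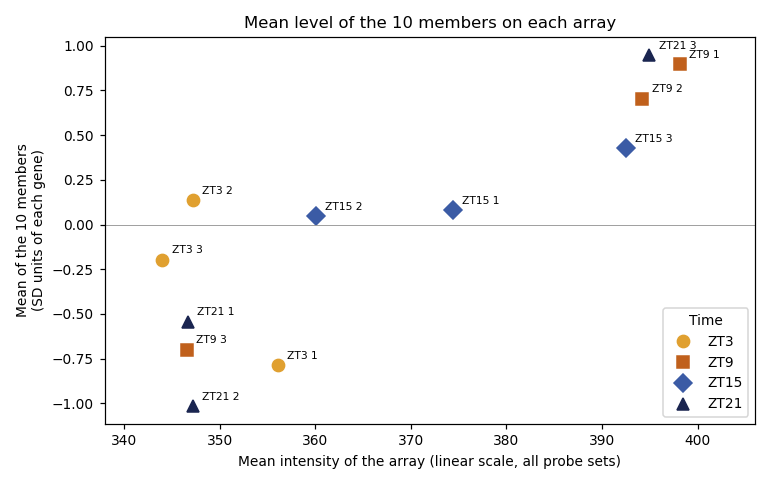
Mean of the 10 members on each array, each member scaled to its own mean and SD over the 12 arrays (vertical axis), against the mean intensity of the array (horizontal axis). Points are single mice, marked by time. The 4 arrays at 392 or above in mean intensity hold the 4 highest member means.

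The genes whose values over the 12 arrays were most like that mean were Cyria (r = 0.962), Chpt1, Arfgef3, Ube2d1, Rnf139, Atp1b1, Ctnnd2, Casd1, Rlf and Hsp90aa1 (r = 0.912). None of these 10 is in the astrocyte lists, and Hsp90aa1 is a cytosolic chaperone. The nearest to the 3 brightest members were Scd2, Slmap, Ulk2, Chst2 and Dlg2 for Slc1a2, Sec24b, Itgav, Pex2, Hnrnph2 and Lims1 for Glul, and Itih5, Ube2e3, Adam10, Ryr2 and Gng4 for Gja1, and none of these 15 is in the astrocyte lists. Among 53 other astrocyte genes the median correlation with the member mean was 0.44, with 48 above 0, beside 0.33 over the 11781 tested genes that are no members, of which 8877 were above 0.

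Of those other astrocyte genes, 53 of 56 were tested and 1 passed the F-test at 0.20, Dio2, the deiodinase that makes active thyroid hormone. Dio2 had means of 8.78, 8.86, 9.38 and 9.06 at ZT3, ZT9, ZT15 and ZT21 (range 0.60, adjusted p = 0.175). The nearest others were Id3, an inhibitor of helix-loop-helix factors (0.272), and Slc25a18, a mitochondrial glutamate carrier (0.289). At an unadjusted p under 0.05 there were 4 of the 53. Of all tested probe sets 15.5% lay there, and 1.93% passed the F-test at 0.20. In ZT15 minus ZT3, 41 of 53 were higher with a median of 0.11, where 60.0% of all tested probe sets were higher. In ZT21 minus ZT9, 31 of 53 were higher with a median of 0.04, where 43.9% of all tested probe sets and 3 of the 10 brightest member probe sets were higher.

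Among genes raised in reactive astrocytes, 13 of 26 were tested and 1 passed, the small heat shock protein gene Hspb1, at 8.07, 7.66, 9.07 and 7.85 in the order of times (range 1.41, adjusted p = 0.103). Vim, a filament protein that reactive astrocytes raise along with Gfap, did not pass (0.287), and neither did Stat3 (0.353). Of 15 tested genes of the glutamate and glutamine cycle 0 passed at 0.20, with 1 at an unadjusted p under 0.05. The smallest adjusted p there were those of Slc38a2, a glutamine transporter (0.266), Slc1a1, the neuronal glutamate transporter (0.329), and Slc38a3, the glial glutamine exporter (0.346). Of 15 endfoot, water and potassium genes 0 passed, also with 1 at an unadjusted p under 0.05. They were led by Dtna (0.319), Slc4a4 (0.327) and Lamb2 (0.396). Among the 13 tested genes of reactive astrocytes, 2 had an unadjusted p under 0.05. Of all tested probe sets 15.5% lay there, and 1.93% passed at 0.20.

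Of 8 other connexins and pannexins tested 1 passed, Gjb1, a connexin of oligodendrocytes, which was highest at ZT21 and lowest at ZT9 (range 0.75, adjusted p = 0.188). Gjd2, the neuronal connexin 36, and Gjc3 did not pass (0.252 and 0.275). Of 19 glycogen and lactate genes 1 passed, the glucose transporter gene Slc2a1, with 10.45 at ZT3 and 11.08 at ZT15 (adjusted p = 0.156), and Gbe1 (0.309) and Ldhb (0.311) did not. Of 23 glial fate factors 1 passed, the Notch target Hes5, with 6.73, 7.54, 6.75 and 7.61 at the 4 times (adjusted p = 0.185), and its relative Hes1 did not (0.284). Id3 is in this list too, and some of the lists share other genes. An unadjusted p under 0.05 was found for 3 of 8 connexins and pannexins and 3 of 19 glycogen and lactate genes. Among the glial fate factors there were 6 of 23. Of all tested probe sets 15.5% lay there, and 1.93% passed at 0.20.

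Markers of other cells were measured in the same arrays, where 1.93% of all tested probe sets passed the F-test at 0.20. At 0.20 the F-test of limma called Stmn2 of 12 neuron markers tested, Gpr17 of 6 of oligodendrocyte precursors and Cldn5, a tight junction gene, of 6 of endothelium (adjusted p = 0.0602), and 0 of 9 of oligodendrocytes, 9 of microglia, 7 of meninges, 6 of striatum and olfactory bulb and 1 of blood. At an unadjusted p under 0.05, where 15.5% of all tested probe sets lay, there were 3 of 12 of neurons, 3 of 6 of oligodendrocyte precursors, 2 of 6 of endothelium, 0 of 9 of oligodendrocytes, 2 of 9 of microglia, 3 of 7 of meninges, 1 of 6 of striatum and olfactory bulb and 0 of 1 of blood. In dark minus light, 8 of 9 microglial markers were higher in the dark (median 0.29) and 6 of 7 meningeal markers lower (median -0.17). Of all tested probe sets 51.9% were higher there, and no marker of either list passed an adjusted p of 0.05. In ZT15 minus ZT3 all 7 tested meningeal markers were lower, and in ZT21 minus ZT9 10 of 12 neuron markers were lower (median -0.14). Of all tested probe sets 60.0% and 43.9% were higher in these contrasts, and none of these markers passed an adjusted p of 0.05. The median deviation of the neuron markers from their own means was -0.15, -0.24 and 0.10 in the 3 mice of ZT21, where that of the members was -0.11, -0.15 and 0.16. Both lists were low in replicates 1 and 2 and high in replicate 3. The same signs held for oligodendrocyte markers (-0.08, -0.14 and 0.15) and the other astrocyte genes (-0.03, -0.04 and 0.16). They did not hold for microglial markers (0.08, 0.23 and 0.13) and the genes of reactive astrocytes (0.03, 0.09 and -0.05). Nor did they hold for oligodendrocyte precursors (0.11, 0.02 and 0.08), endothelium (-0.01, 0.02 and 0.14) and meninges (-0.04, 0.23 and -0.02). They held for striatum and olfactory bulb (-0.003, -0.01 and 0.07). These medians take in genes too dim to be tested, which were 11 of the 24 genes of reactive astrocytes on the array. Of the choroid plexus and ependyma markers 2 of 9 were tested and 0 passed, 0 also at an unadjusted p under 0.05, and Ttr, the transthyretin of the choroid plexus, read 14.82 in ZT9 replicate 3 and 14.18 in ZT15 replicate 1 against 9.22 to 12.40 in the others. The part of these cells in the members' values was not tested. Of 15 clock genes used as a check of the times 8 passed, among them Per2 with a range of 3.07.

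The promoters of the members were searched for short motifs known from clock and glial gene control. The RefSeq table of GRCm38.p6 holds promoters, from 250 bases before to 50 after the start, for 8 of the 10 members. On both strands, the E-box CACGTG was in 0 of 8 (8.09% of the 27025 genes of the table), the D-box TTATGTAA in 0 (1.11%), and the cAMP response element TGACGTCA in 0 (2.03%). The STAT motif TTCNNNGAA was in 2, Slc1a3 and Gfap (9.55%), and the AP-1 motif TGANTCA in 1, Gja1 (8.97%). A match describes these letters and no binding was measured.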

How the data were processed

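RNA of the prefrontal cortex was hybridised to Affymetrix Mouse430_v2 arrays, 1 mouse per array, and the replicates are separate mice by the study's methods. The deposited unit is a linear intensity per probe set, obtained by the authors with GCRMA in GeneSpring, while MAS 5.0 gave their detection calls. The versions of GCRMA and the genome build are not given in the sources used here, and no batch or scan date is given either. The table holds 45101 probe sets, 64 of them controls, which were left out, and symbols are those of the platform annotation, with 34945 probe sets carrying 1 symbol.

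Values were taken as log2. The 24546 probe sets with the highest mean were tested, as many as passed the authors' detection filter. The 4 times were compared by a moderated F-test (R 4.3.3, limma 3.58.1, functions lmFit and eBayes), with Benjamini-Hochberg adjustment over all 24546 and a threshold of 0.20. Contrasts used the moderated statistic of the same fit, two-sided, at 0.05. The study used multiclass SAM, which was run as an alternative with 100 permutations. Other alternatives were the number of probe sets, an offset of 16, quantile and median scaling, array weights, a replicate block and each array left out. The fit was tested on simulated data with known changes. Each gene stands by its brightest probe set and by every other annotated to it alone. In other lists, genes past 0.20 are named and, with fewer than 3, those of smallest p up to 3. Members and lists were chosen with earlier results of these data known. Python 3.11.15 with matplotlib 3.10.9, numpy 2.4.6 and pandas 2.3.3 was used for tabulation and plots.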

Additional observations from a re-analysis of the deposited data

How the results depend on the processing

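Over the 29 tested member probe sets, 567 of 606 comparisons with an alternative stayed on the same side of an adjusted F-test p of 0.20, 30 came to lie past it and 9, all of 1426235_a_at of Glul, no longer did. The member call count, 1 as reported, was 4 among the 15000 brightest probe sets, 16 with array weights, 2 after quantile normalization, 2 by SAM, 0 without a filter and 0 with the replicate block, and 0 to 5 with an array left out (0 in 7 of the 12 such fits). It was 5 without ZT21 replicate 3, 4 without ZT9 replicate 1, 3 without ZT15 replicate 3 and 2 without ZT9 replicate 3. Those fits also called more of all tested probe sets than reported, at 2870, 3013, 1379 and 1492 in the same order. Over all tested probe sets the count, 473 as reported, was 1330 among the 15000 brightest, 14718 with array weights, 252 after median centring, 194 without a filter, 2144 after quantile normalization, 91 with the replicate block, 2351 by SAM, and 40 to 3013 with an array left out. The array weights ran from 0.342 for ZT9 replicate 1 to 3.76 for ZT3 replicate 2. With them, member calls numbered 4 in dark minus light and 8 in ZT21 minus ZT9. The difference between the early and the late pair had 4, and 0 was reported for each. The share of all tested probe sets called in these weighted contrasts is not given here, so the member counts cannot be set against it. ZT21 minus ZT9 had 0 to 1 member calls with an array left out, also without such a share. The cause of these shifts was not tested.

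The replicate numbers were not taken as pairs in the reported fit. Deviations of same-numbered mice correlated at -0.50 to 0.49, with a median of -0.09 and 6 of 18 pairs above 0.1. Mice with different numbers had a median of 0.06. Whether some same-numbered arrays were handled together was not tested. With the replicate block the Glul probe set had an adjusted p of 0.305, and without a filter 0.234. With 3 mice per time, the number of arrays limits the precision, and the 4 dim member probe sets carry no test.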
